A study of Mus musculus with 6 samples.

Results

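Distal H3K4me1 regions that lay close together in wild-type mouse germinal center (GC) B cells were analysed here as arrays. An array was a run of at least 4 H3K4me1 regions, each more than 5 kb from every transcription start site (TSS) of a protein-coding gene and at most 12.5 kb from the next. The members were chosen by the H3K4me1 peaks themselves. Peaks of 3 libraries were merged, merged regions hit by at least 2 libraries were kept, and distal regions were stitched into clusters. Of 8430 consensus regions 5788 were distal, and they formed 3713 clusters, of which 228 were arrays that together held 1158 regions. The number, length, position and H3K4me1 values of arrays are therefore descriptions without a test, and tests were made on H3K4me3, which the selection did not use.

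All 6 libraries came from spleens of wild-type (WT) mice that had received sheep red blood cells (SRBC), an antigen that induces GCs, 8 days earlier, with 3 libraries for H3K4me1 (antibody ab8895) and 3 for H3K4me3 (antibody ab8580), each made from 50000 sorted cells by Mint-ChIP, which barcodes nuclease-cut chromatin so that small samples can be pooled before immunoprecipitation. The labels call the cells GC Centrocytes, which are the light zone fraction, whereas GC B cells are named in the methods. The extraction text names an H3K27ac antibody, whereas the titles, the antibody labels and the study's methods name the marks used here. No mutant or naive sample is compared, and the sources do not say whether replicates came from separate mice, so the spread between libraries may be technical.

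H3K4me1 is deposited at enhancers by KMT2C and KMT2D, whereas H3K4me3 is laid down mainly at promoters and also occurs at a lower level at active enhancers. Enhancers that sit close together around a cell identity gene are often treated as a unit, called a stretch enhancer or super-enhancer, and the latter is usually called from H3K27ac or a coactivator, neither of which was measured here. In GC B cells such runs are known at genes for lineage transcription factors, B cell receptor signalling and the receptors through which B cells take help from T cells.

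The DNA under 8 arrays is shown first, so that the motifs that B cell factors recognise can be read in it directly. They were picked from the 25 arrays with most regions as examples of signalling genes, transcription factors and the heavy chain locus, after their values were seen, and other arrays of these kinds are not shown. Each line gives 300 bp of the plus strand of GRCm38 (mm10) around the H3K4me1 summit with the highest fold enrichment in the array. Capitals mark matches, on either strand, to 10 short motifs: PU.1 (GAGGAAGT), ETS (CCGGAAGT), E-box (CAGCTG), EBF1 (CCCNNGGG), octamer (ATGCAAAT), AP-1 (TGANTCA), RUNX (TGTGGTT), IRF (GAAANNGAA), STAT (TTCNNNGAA) and kappaB (GGGANTTCC). Matches of different motifs were counted separately where they overlapped.
Tec (chr5:72853250-72853549): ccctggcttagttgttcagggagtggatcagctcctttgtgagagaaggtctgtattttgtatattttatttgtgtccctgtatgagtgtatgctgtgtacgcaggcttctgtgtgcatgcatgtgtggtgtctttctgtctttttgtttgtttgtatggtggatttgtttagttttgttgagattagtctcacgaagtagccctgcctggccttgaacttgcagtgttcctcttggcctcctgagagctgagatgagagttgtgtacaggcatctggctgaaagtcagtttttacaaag
Ptprj (chr2:90531468-90531767): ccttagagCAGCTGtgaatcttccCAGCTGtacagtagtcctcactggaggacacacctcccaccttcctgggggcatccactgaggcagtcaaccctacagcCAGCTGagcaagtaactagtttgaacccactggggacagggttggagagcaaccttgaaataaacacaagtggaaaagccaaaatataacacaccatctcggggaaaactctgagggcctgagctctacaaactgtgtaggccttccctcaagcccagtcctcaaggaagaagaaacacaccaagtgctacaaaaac
Ptprc (chr1:138126838-138127137): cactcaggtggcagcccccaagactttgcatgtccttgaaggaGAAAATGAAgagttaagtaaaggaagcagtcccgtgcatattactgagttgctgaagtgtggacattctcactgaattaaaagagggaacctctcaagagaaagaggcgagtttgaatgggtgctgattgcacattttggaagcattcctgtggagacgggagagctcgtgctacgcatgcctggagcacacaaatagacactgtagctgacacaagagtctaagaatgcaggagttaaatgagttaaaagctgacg
Tmem121 (chr12:113227235-113227534): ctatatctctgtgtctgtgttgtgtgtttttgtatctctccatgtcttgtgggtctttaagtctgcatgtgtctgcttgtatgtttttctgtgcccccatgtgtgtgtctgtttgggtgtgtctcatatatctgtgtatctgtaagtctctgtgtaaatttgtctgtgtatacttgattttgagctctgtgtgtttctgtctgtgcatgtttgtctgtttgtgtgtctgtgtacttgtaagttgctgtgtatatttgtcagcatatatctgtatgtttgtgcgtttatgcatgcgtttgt
Id3 (chr4:136077301-136077600): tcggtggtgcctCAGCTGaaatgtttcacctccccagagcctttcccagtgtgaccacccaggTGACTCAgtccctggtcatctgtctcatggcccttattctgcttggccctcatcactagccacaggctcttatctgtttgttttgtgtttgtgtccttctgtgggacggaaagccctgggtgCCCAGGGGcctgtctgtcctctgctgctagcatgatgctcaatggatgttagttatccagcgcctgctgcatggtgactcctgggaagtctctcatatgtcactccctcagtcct
Ets1 (chr9:32667922-32668221): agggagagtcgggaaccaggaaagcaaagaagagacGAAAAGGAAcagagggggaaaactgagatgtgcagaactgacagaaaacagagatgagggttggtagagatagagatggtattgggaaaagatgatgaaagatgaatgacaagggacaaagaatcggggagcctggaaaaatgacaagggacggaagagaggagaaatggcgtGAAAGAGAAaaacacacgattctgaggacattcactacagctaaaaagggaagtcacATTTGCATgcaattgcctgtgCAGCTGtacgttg
Ikzf1 (chr11:11713190-11713489): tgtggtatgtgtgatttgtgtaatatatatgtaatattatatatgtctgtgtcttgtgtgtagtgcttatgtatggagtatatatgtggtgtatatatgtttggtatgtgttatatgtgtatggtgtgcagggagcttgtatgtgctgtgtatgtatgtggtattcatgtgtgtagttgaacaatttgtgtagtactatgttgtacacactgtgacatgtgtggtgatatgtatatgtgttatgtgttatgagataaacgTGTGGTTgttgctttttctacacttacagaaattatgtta
Bcl6 (chr16:24185758-24186057): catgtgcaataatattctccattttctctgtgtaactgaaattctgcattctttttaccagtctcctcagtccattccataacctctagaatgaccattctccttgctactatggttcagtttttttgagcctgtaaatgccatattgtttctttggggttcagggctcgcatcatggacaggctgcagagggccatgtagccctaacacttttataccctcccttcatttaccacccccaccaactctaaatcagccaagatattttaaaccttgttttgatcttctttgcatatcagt
The windows of Tec, Ptprj, Ptprc, Ets1 and Ikzf1 lay in arrays whose regions were all intronic, and those of Tmem121, Id3 and Bcl6 in arrays outside protein-coding genes. The Ets1 window held 4 matches, of which 2 were IRF, 1 was octamer and 1 was E-box. The Ptprj window held 3 E-boxes, and the Id3 window held an E-box, an AP-1 and an EBF1 match. No letters of the 10 motifs were found in the windows of Tec, Tmem121 and Bcl6, which says only that these strings are not in these 300 bp. Repeat masking covered 162 of the 300 bases at Tec, 132 at Tmem121 and 135 at Ikzf1, and 58 or fewer at the other 5.

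Across all 1158 array regions the windows resembled those of other distal regions. The median GC content was 45.0% in arrays and 45.3% in the 2575 clusters of a single region, the median observed over expected CpG ratio was 0.195 and 0.204, and 17.6% and 18.8% of bases were repeat-masked. An E-box was present in 13.6% of array windows, 17.4% of single-region windows and 16.3% of 32851 RefSeq promoter windows of the same length. PU.1 letters were present in 4.84%, 6.80% and 3.20% of these windows, and octamer letters in 2.59%, 4.43% and 1.74%. AP-1 letters were found in 10.9% of array windows and 10.1% of single-region windows, and STAT letters in 9.33% and 7.96%. IRF letters were at 11.7% and 14.1%, RUNX at 8.38% and 9.28%, EBF1 at 5.44% and 6.68%, kappaB at 0.777% and 1.13%, and ETS at 0.173% and 0.971%. Of the 10 motifs, AP-1 and STAT were the 2 with the higher share in arrays, and these shares were not tested.

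The libraries differed in how many peaks they listed. H3K4me1 replicate 1 held 24136 peaks, against 13923 and 11922 in replicates 2 and 3, and the H3K4me3 libraries held 46707, 41936 and 42862. Read totals are not in these lists. The summit height of an H3K4me1 peak was taken as the whole number of fragments that best fits its fold enrichment and p-value. For 100% of peaks in arrays and in clusters of a single region, that number gave back the −log10 p-value within 0.0005. The median summit over array peaks was 7 fragments in each of the 3 libraries, so a single region rests on few reads. Of the markers for the sorted cells, 9 of 9 GC B cell genes, Bcl6 and S1pr2 among them, had H3K4me3 over a TSS in 3 of 3 libraries. The same held for 1 of 5 T cell genes (Lck), 0 of 4 myeloid genes and 0 of 3 erythroid genes, and for 38.4% of all protein-coding genes. Of the erythroid genes, Gata1 and Klf1 had no such peak in any library, whereas Hbb-bt was not among the genes without one. Counts of so few genes do not measure the purity of the sort.

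Arrays were found on every chromosome except X. Chromosome 11 held 21, chromosome 1 held 20 and chromosome 16 held 19, whereas the X chromosome had 24 distal regions and no array. The median array spanned 15.4 kb (3.09 to 67.0 kb), and 76 arrays were longer than 20 kb. The total length was 4.04 Mb, and the median gap between neighbouring regions was 2512 bp. The median distance from an array to the nearest protein-coding TSS was 20080 bp, with 113 arrays within 20 kb and 24 beyond 100 kb. In 161 arrays all regions lay in a single protein-coding gene. In 152 arrays the gene that overlapped the most regions, which need not be all of them, was also the gene with the nearest TSS. Of array regions 70.3% were intronic, 4.58% exonic and 25.1% intergenic, against 52.6%, 8.04% and 39.4% of single regions.

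The limit of 4 regions cuts a continuous range. The 124 arrays with exactly 4 regions spanned a median of 13.5 kb and held a median of 9 H3K4me1 peaks over the 3 libraries. The 235 clusters with 3 regions, just outside the limit, spanned 8.04 kb and held 7 peaks. A further 46 arrays had 5 regions, 24 had 6, 15 had 7 and 8 had 8, and 11 arrays had 9 or more.

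Membership depended on H3K4me1 replicate 1 more than on the others. That library hit 86.7% of array regions, replicate 2 hit 74.7% and replicate 3 hit 64.2%. At least 4 regions of the array were hit in 172, 120 and 94 of the 228 arrays by replicates 1, 2 and 3 alone. All 228 arrays had a peak of replicate 1 and of replicate 2, and 224 had a peak of replicate 3. Without replicate 1 only 23 arrays were found, without replicate 2 there were 43 and without replicate 3 there were 73, because a region then had to be hit by both remaining libraries. Of the 228 arrays 119 were found in none of these 3 settings, 87 in 1, 15 in 2 and 7 in all 3. These 7 had Tec, Ptprc, Cdyl, Ankrd11, Zfp608, Hjurp and Itpr1 as nearest genes. Of array regions 25.6% were hit by all 3 libraries, and 21.1% of single regions were. The fold enrichment of array peaks had medians of 5.61, 5.49 and 5.47 in replicates 1 to 3, and that of single-region peaks 5.49, 5.25 and 5.19, so the medians were higher in arrays in each library.

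The 25 arrays with most regions are described by the role of the nearest gene rather than by rank, beginning with kinases and phosphatases. The array with most regions was in Tec, a kinase of the BTK family that acts below the B cell receptor. It spanned 67.0 kb of the gene's introns (chr5:72795967-72862962) and held 15 regions, of which 5 were hit by all 3 libraries. Replicates 1, 2 and 3 had 13, 12 and 11 H3K4me1 peaks there, with a highest fold enrichment of 13.0, 8.25 and 8.04. H3K4me3 peaks covered 58.9%, 50.1% and 55.1% of its length in the 3 H3K4me3 libraries. The Tec array was thus called in all H3K4me1 libraries, and the H3K4me3 libraries covered it to a similar extent.

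The arrays ranked 3 and 5 lay in genes of receptor phosphatases. Ptprj encodes CD148, and Ptprc encodes CD45, both of which control Src family kinases at the antigen receptor. The Ptprj array (chr2:90523779-90570988) held 12 regions over 47.2 kb, with 10, 10 and 7 regions hit by H3K4me1 replicates 1 to 3. The Ptprc array (chr1:138126909-138150700) held 10 regions over 23.8 kb, with 8, 8 and 7 hit. H3K4me3 covered 65.3%, 52.1% and 52.9% of the Ptprj array and 72.2%, 52.5% and 75.3% of the Ptprc array. Both lay wholly within introns of their gene. Other signalling genes among the 25 were Ptk2b, the kinase PYK2, with 10 regions in 29.5 kb, and Ptpn1, the phosphatase PTP1B, with 8 regions in 21.7 kb.

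Small GTPases and their regulators formed a second group. Rhoh, a small GTPase of blood cells, had an array of 11 regions over 48.1 kb (chr5:65870379-65918493), 7 of them inside the gene. H3K4me1 replicate 1 hit all 11, replicate 2 hit 6 and replicate 3 hit 7, so 1 library carried more of it than the others. H3K4me3 cover was 51.6%, 42.9% and 32.3%. Swap70, a Rac regulator known from B cell migration, had arrays of 8 and 4 regions, Rapgef1, an exchange factor for RAP1, had 7 regions, and Rras2, a Ras relative, had 7.

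Transcription factors made up the next group. Id3 encodes an inhibitor of E proteins, the factors that bind E-boxes. Its array held 10 regions over 57.8 kb (chr4:136077207-136134996) and lay outside genes, 8501 bp from its TSS. The H3K4me1 libraries hit 8, 8 and 6 of the regions, and H3K4me3 covered 39.3%, 29.2% and 30.1% of the length. This was the lowest H3K4me3 cover among the 25 arrays in 3 of 3 H3K4me3 libraries, and the median gap between its regions was 5566 bp. Hivep2, a large zinc finger protein, had arrays of 8 and 5 regions. Zfp608, a zinc finger protein, had 8 regions, and Zbtb20, a BCL6-related repressor used in plasma cells, had 7.

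Ets1 and Ikzf1 encode an ETS factor and Ikaros, both needed for lymphoid development. The larger Ets1 array (chr9:32659996-32686003) held 8 regions over 26.0 kb, with 7, 7 and 4 hit by the H3K4me1 libraries, and H3K4me3 covered 54.3%, 46.7% and 60.6% of it. The larger Ikzf1 array (chr11:11712621-11744812) held 8 regions over 32.2 kb, with 8, 4 and 5 hit, and H3K4me3 covered 48.4%, 40.5% and 41.2%. Each gene was nearest to a second array of 4 regions. Fli1, the ETS gene next to Ets1, had an array of 7 regions, and H3K4me3 covered 79.8%, 74.8% and 88.3% of it.

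BCL6 is the repressor on which the GC reaction depends. The array assigned to it (chr16:24162591-24186284) held 7 regions over 23.7 kb and lay 173739 bp upstream of its TSS, in the interval between Bcl6 and Lpp. H3K4me1 replicates 1 and 2 hit 7 of the 7 regions and replicate 3 hit 2. H3K4me3 covered 62.4%, 42.8% and 58.3%. It was the first of 5 arrays with 25 regions in 479 kb, and the other 4 had Lpp, a gene for a cytoskeletal adaptor, as the nearest gene. Arrays were otherwise mostly alone, with 170 of 228 having no other within 250 kb. Smaller runs of 3 arrays were found at Fli1 and Ets1 (19 regions), at Ikzf1 and 4930512M02Rik (17), at Bcl11a (14), at Prkca (13) and at Lrch1 and Rubcnl (13). In all, 16 genes were nearest to more than a single array, of which Lpp had 4 and Bcl11a and Prkca had 3 each.

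Among the remaining arrays of the 25, the one assigned to Tmem121 lay at the 3′ end of the immunoglobulin heavy chain locus (chr12:113227036-113258590). It held 10 regions over 31.6 kb and overlapped only Igha, the gene of the IgA constant region, in the annotation. The heavy chain locus is known to have a strong enhancer cluster at this end. The H3K4me1 libraries hit 9, 6 and 7 regions and H3K4me3 covered 59.3%, 41.8% and 46.8%. The chromatin genes Cdyl and Ankrd11 had 10 and 9 regions, and 4 regions of each were hit by all 3 libraries. Sgms1, a sphingomyelin synthase, ranked 2 with 13 regions, of which H3K4me1 replicates 1 to 3 hit 11, 12 and 5. Erp44, which retains unassembled proteins such as IgM subunits in the secretory pathway, had 9, and Lnpep, an aminopeptidase of antigen cross-presentation, had 7. Gpr18, a lymphocyte receptor, was nearest to an array of 7 regions within Ubac2, and A730071L15Rik to 1 of 8 regions within Nudcd3.

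The array in Gm47283, placed on the Y chromosome, stood apart. It held all 8 distal regions of that chromosome, and whether its reads came from Y alone was not tested. It packed 8 regions into 10.5 kb, H3K4me3 covered 100%, 91.2% and 83.8% of it, and 46.0% of its window bases were repeat-masked. Without the arrays above 40% masked and those on Y there were 224 arrays.

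**Figure D1:**
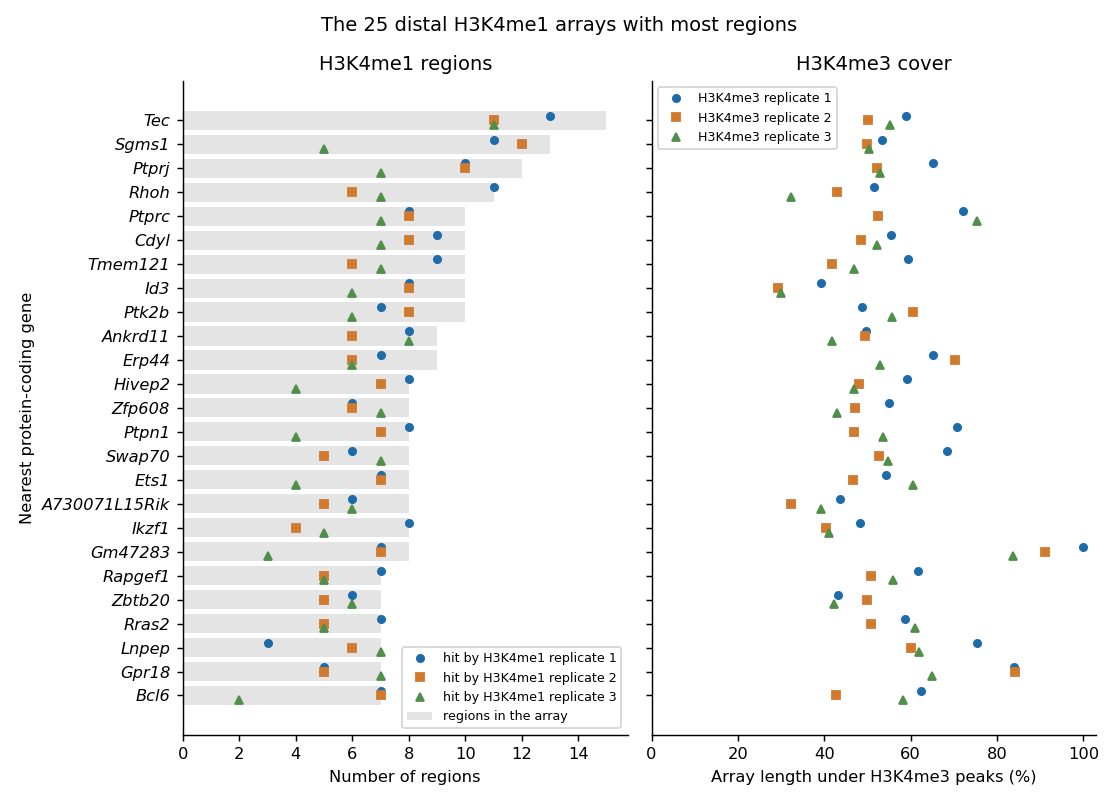
The 25 arrays with most regions, by nearest gene. The left panel gives the regions in the array (grey bars) and those hit by each H3K4me1 library (points), and the right panel gives the percent of the array's length under H3K4me3 peaks in each H3K4me3 library. Tec leads with 15 regions, Bcl6 was hit at 2 of 7 regions by replicate 3, and the array in Gm47283 had the highest cover.

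The lists of B cell genes, 7 in number, held 140 genes, and 25 of them (17.9%) were the nearest gene of an array, against 0.951% of 21864 protein-coding genes (208 genes). The lists were written with earlier results of these data known, so this contrast is a description without a test. A TSS within 100 kb of an array was found for 31 of the 140 listed genes, against 2.15% of all genes, and several genes can share an array in this count. The count of 25 rested on all 3 H3K4me1 libraries: it was 3 without replicate 1, 8 without replicate 2, 12 without replicate 3 and 0 with regions in all 3 libraries. Il21r, H2-Ab1, Lmo2, Foxo1, Gpr183, Sema4d, Jak1 and Prkcb had no array in any setting that left out a library, whereas Ptprc had it in all 3. Of 54 genes of T cells, of myeloid and erythroid cells and of other tissues, 0 were nearest to an array, and of 12 housekeeping genes 0 were, which at a share of 0.951% cannot be told apart from all genes. Unlisted genes best known from other cells were nearest to arrays, such as Ifng, the T and NK cell cytokine, with 4 regions 53272 bp away, and Scgb1a1, an airway protein, whose 4 regions lay within Ahnak. Both were picked after their values were seen. Nearest genes were also long, with a median of 85.6 kb against 17.2 kb for all others, and the part of gene length in these counts was not tested. Among the 8405 genes with H3K4me3 over a TSS in 3 of 3 libraries, 1.65% were nearest to an array.

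The transcription factor list had 9 of 24 genes nearest to an array, which were Bcl6, Foxo1, Bach2, Ikzf1, Ets1, Fli1, Lmo2, Bcl11a and Elf1. Ikzf3 and Runx3 had a TSS within 100 kb. An array of 4 regions lay within Ikzf3 itself, but the nearest TSS was that of Grb7. FOXO1 sustains the dark zone, and its array of 4 regions was the farthest of these from its gene, at 349724 bp. BACH2 holds back plasma cell differentiation, and its array of 5 regions (chr4:32162773-32178869) lay 59935 bp upstream. H3K4me3 covered 84.1%, 69.1% and 80.9% of the Bach2 array, although no H3K4me3 peak covered an annotated Bach2 TSS in any library. As for all promoters here, only a peak over the TSS base itself was counted, so H3K4me3 beside it is not excluded. Lmo2, an adaptor of transcription complexes in GC B cells, had 6 regions 60398 bp away, and its promoter peak was 3629, 3530 and 3494 bp wide in the 3 libraries. Bcl11a, a zinc finger factor of early B cells, had arrays of 6, 4 and 4 regions and promoter peaks of 12166, 10046 and 14189 bp.

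Genes through which GC B cells present antigen and take T cell help had 6 of 27 members nearest to an array, namely Cd86, Il21r, Pdcd1lg2, H2-Ab1, Sema4d and Cd83. A further 5 lay within 100 kb, which were Il4ra, Cd274, H2-Ob, H2-Aa and H2-Eb1. Each array has a single nearest gene, so these 5 share an array with another gene, as H2-Ob does with H2-Ab1. CD86 is the costimulatory ligand of CD28. Its array held 5 intronic regions over 25.8 kb (chr16:36626824-36652613), with 5, 4 and 3 regions hit by the H3K4me1 libraries. H3K4me3 covered 59.7%, 46.2% and 37.7%, and 5 of 5 regions were overlapped in each H3K4me3 library. The Il21r array, at the receptor of the T follicular helper cytokine IL-21, held 5 regions (chr7:125580133-125597801) 5693 bp upstream, with 4, 4 and 2 hit. H3K4me3 covered 67.9%, 45.4% and 46.5% of it, and the peak over the Il21r TSS, at 16211, 12951 and 12924 bp, was as wide as the widest peak in the array in each library. Pdcd1lg2, the PD-1 ligand PD-L2, had 5 regions but the lowest cover of these genes, at 16.9%, 16.5% and 13.0%. The array of H2-Ab1, an MHC class II chain, had 4 regions, 3 of which lay in H2-Ob.

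The antigen receptor signalling list had 4 of 26 genes nearest to an array, which were Ptprc, Pik3ap1, Prkcb and Dock2, and Fcrla within 100 kb. Pik3ap1, the adaptor BCAP that recruits PI3 kinase, had 5 regions, of which 4, 4 and 5 were hit by the H3K4me1 libraries, and H3K4me3 covered 85.9%, 69.8% and 78.8%. Prkcb, the kinase that relays the signal to NF-kB, had the minimum of 4 regions, of which 2, 4 and 2 were hit.

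Of 17 genes of migration and confinement, 3 were nearest to an array. CXCR4 holds cells in the dark zone, GPR183 guides activated B cells outward, and SWAP70 acts on the cytoskeleton. The Cxcr4 array (chr1:128603012-128614365) held 6 intergenic regions 10722 bp upstream, with 5, 5 and 4 hit, and H3K4me3 covered 49.2%, 49.8% and 39.5%. The Gpr183 array held 6 regions, none of which was hit by all 3 libraries. In the plasma and memory cell list 2 of 13 were nearest to an array, Zbtb20 and Klf2. The Klf2 array of 5 regions lay within Eps15l1, 29250 bp from Klf2, and no library had an H3K4me3 peak over a Klf2 TSS. The NF-kB and JAK-STAT list had 1 of 23, Jak1, and the list of chromatin regulators mutated in lymphoma had 0 of 10.

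Of the genes taken from the study's text, 5 had no array. Among these, the study names only Il9r as a super-enhancer target, called from H3K27ac with a smaller exclusion around start sites. H2-Oa is named there for its change in expression, and Spib, Spi1 and Stat3 for their motifs. An absence here is thus not the same measure as the study's calls. Within 100 kb of Il9r, Spib, Spi1 and Stat3 there was no distal H3K4me1 cluster of any size, and near H2-Oa the largest cluster was a single region. Promoter H3K4me3 was nonetheless present at Spib (9982, 9245 and 9901 bp wide), Stat3 (4110, 4446 and 4784 bp) and H2-Oa (3682, 3459 and 2626 bp). No peak covered a Spi1 TSS, and at Il9r 2 of 3 libraries had a peak of 710 and 962 bp.

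**Figure D2:**
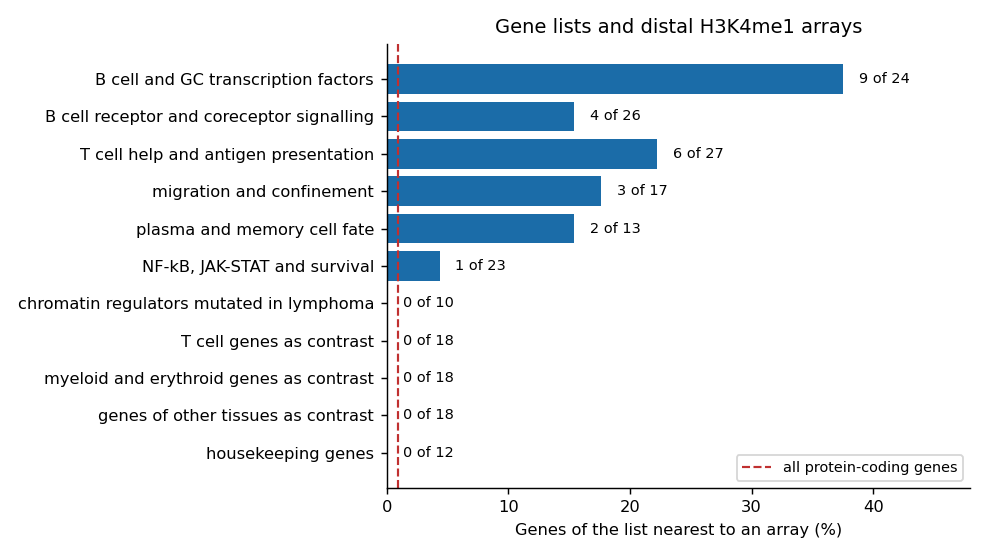
Percent of the genes of each list that were the nearest protein-coding gene of an array, with the counts beside the bars and all protein-coding genes as a dashed line at 0.951%. Blue bars are lists of B cell genes and grey is used for contrast and housekeeping lists, all at 0. Transcription factors lead with 9 of 24, and the NF-kB list has 1 of 23. The counts of the B cell lists sum to 25, and to 3 without H3K4me1 replicate 1. The lists were written with earlier results of these data known.

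H3K4me3 was next used as a measurement that had no part in the selection. All 228 arrays had at least 1 region overlapped by H3K4me3 in each of the 3 H3K4me3 libraries, and in 169, 141 and 136 arrays all regions were. Of all distal regions 92.5%, 88.6% and 88.8% were overlapped in replicates 1, 2 and 3. At these shares few runs of at least 4 regions could lack an overlap, so these counts say little about arrays. Of array regions 94.1%, 91.2% and 90.8% were overlapped in replicates 1, 2 and 3, and of single distal regions 90.4%, 86.1% and 86.4%. The share was thus higher in arrays in 3 of 3 libraries, by 4.40 ± 0.708 percentage points (mean ± SD of the differences). A two-sided exact sign-flip permutation test gave p = 0.25 (adjusted 0.25 over 5 tests), which is the smallest p that 3 libraries allow, so the design cannot reach 0.05 for this or the tests below. In all 3 libraries together 985 of 1158 array regions were overlapped (85.1%), against 82.3% of all distal regions, 79.1% of single regions and 84.9% of regions in clusters of 2 or 3. Arrays were therefore close to smaller clusters in this measure, and the isolated regions were lower.

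The share was also higher in arrays within each range of distance and for each number of H3K4me1 libraries. At 5 to 20 kb from a TSS the share was 95.0%, 92.4% and 90.9% in arrays and 91.4%, 86.8% and 87.3% among single regions. The mean difference was 5.14 points at 20 to 50 kb and 4.33 points beyond 50 kb. Among regions hit by 3 H3K4me1 libraries it was 2.38 points, and among those hit by exactly 2 it was 4.46 points. With H3K4me3 peaks limited to a −log10 q-value of at least 5, the difference widened to 13.1 points.

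**Figure D3:**
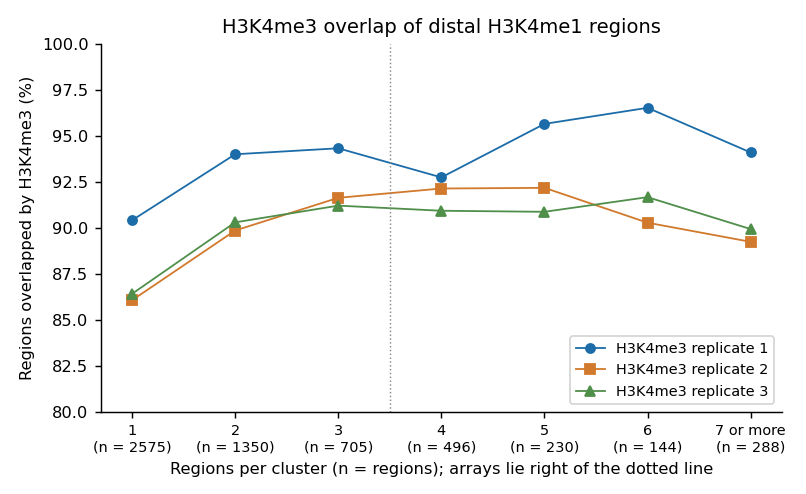
Percent of distal H3K4me1 regions overlapped by an H3K4me3 peak, by the number of regions in their cluster, for each of the 3 H3K4me3 libraries (the axis starts at 80%). Single regions are lowest in every library, at 86.1% to 90.4%, and no steady rise is seen from 2 regions upward.

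The H3K4me3 peaks over array regions were wider. Their median width was 3086, 2190 and 2202 bp in the 3 libraries, against 1538, 1304 and 1306 bp over single regions. The log2 ratio was 0.84 ± 0.15 (SD, n = 3) and above 0 in 3 of 3 libraries (exact sign-flip permutation test, p = 0.25). The fold enrichment of the same peaks hardly differed, with medians of 5.59, 5.35 and 5.19 over arrays and 5.43, 5.25 and 5.08 over single regions. That log2 ratio was 0.033 ± 0.0093 (exact sign-flip permutation test, p = 0.25), and it fell below 0 without H3K4me1 replicate 1 (-0.014), without replicate 3 (-0.029) and at a −log10 q-value of at least 5 (-0.039). H3K4me3 peaks over array regions were thus broader than over isolated regions, whereas the direction of the difference in enrichment depended on the setting. A single peak can run over several neighbouring regions of an array, so the selection of close regions can contribute to the width by construction. That contribution was not tested.

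H3K4me3 also reached between the regions of an array. Peaks covered 54.4%, 46.7% and 46.7% of the summed array length. They covered 90.5%, 84.5% and 85.2% of the bases of the H3K4me1 regions and 47.4%, 39.4% and 39.2% of the gaps. In the 12.5 kb on either side of arrays 25.3%, 20.9% and 21.0% of bases were covered. The cover of a single array ranged from 16.1%, 9.01% and 13.0% to 100% in the 3 libraries. At 5 kb downstream of an array region's centre 42.5%, 36.0% and 34.9% of regions were under a peak, against 11.1%, 8.66% and 9.44% for single regions, a contrast to which neighbouring regions of the same array contribute by construction.

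**Figure D4:**
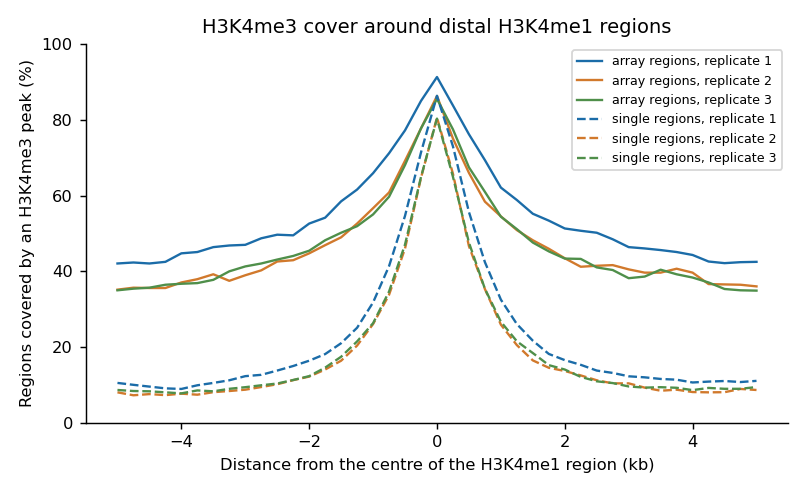
Percent of distal H3K4me1 regions under an H3K4me3 peak by distance from the region's centre in kb, for regions in arrays (solid) and single regions (dashed), per H3K4me3 library. The lines lie close together at the centre, and at 5 kb array regions stay at 34.9% to 42.5% whereas single regions fall to 8.66% to 11.1%.

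Promoters of the genes nearest to arrays carried H3K4me3 more often than other promoters. A peak covered a TSS of 78.8%, 72.1% and 75.5% of the 208 nearest genes and of 46.9%, 42.0% and 44.0% of the 21656 other protein-coding genes. The difference was 31.2 ± 0.939 points and positive in 3 of 3 libraries (exact sign-flip permutation test, p = 0.25). In 3 of 3 libraries 139 of 208 nearest genes had it (66.8%), against 38.4% of all genes, and 36 had it in none. Genes nearest only to a smaller cluster lay between, at 71.0%, 62.5% and 66.0% of 2307 genes, which left a mean difference of 9.02 points. The contrast was thus smaller against genes next to a smaller cluster than against all other genes. These shares count only a peak over the TSS base itself, so a gene without one may have H3K4me3 beside it. With peaks within 1 kb of a TSS the difference to other genes was 34.9 points.

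The promoter peaks of nearest genes were also wide. Their median width was 4248, 3598 and 3722 bp, against 2091, 1898 and 1898 bp at other genes and 2537, 2240 and 2303 bp at genes nearest to a smaller cluster. The log2 ratio to other genes was 0.97 ± 0.05 (exact sign-flip permutation test, p = 0.25), and against genes of smaller clusters it was 0.71. The promoter peak reached the array itself at 20, 10 and 18 genes, and without all such genes the ratio was 0.82. At Bcl6 the promoter peak was 9477, 9005 and 9541 bp wide, at Fli1 7605, 7377 and 7827 bp and at Cxcr4 9846, 4990 and 6692 bp. Elf1, an ETS factor, had 8509, 8683 and 9734 bp, and Zbtb20 had 10859, 9970 and 11058 bp. Ikzf1 had 11013 and 11269 bp in replicates 1 and 3, whereas no peak covered its TSS in replicate 2, and Ets1 had 3077 and 4368 bp with none in replicate 2. Cd86, at 2372, 2380 and 2124 bp, and Jak1, at 2552, 2630 and 2270 bp, had promoter peaks closer to the median of other genes.

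**Figure D5:**
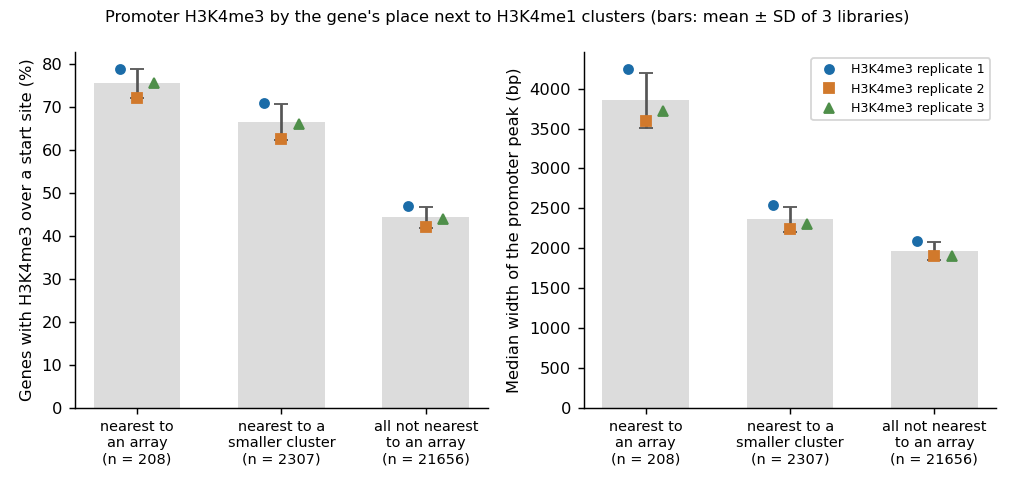
Share of genes with an H3K4me3 peak over a TSS (left, in percent) and median width of that peak (right, in bp) for genes nearest to an array, genes nearest only to a smaller cluster, and all genes not nearest to an array, which include the second class. Points are the 3 H3K4me3 libraries and bars their mean with SD, and the array class is highest in every library in both panels.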

How the data were processed

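Peak lists of 3 H3K4me1 and 3 H3K4me3 Mint-ChIP libraries were analysed. Peaks had been called library by library by the authors, without pooling. The submitters' processing notes name BWA, Picard, HOMER, Genrich and the build mm10, without versions or roles. The layout is that of MACS2, narrow for H3K4me1 and broad for H3K4me3, and the control and settings are not given in the sources used here. The deposited fold enrichment is a linear ratio to local background, and the authors' −log10 q-value and −log10 p-value stand beside it. In broad lists these are averages over the peak. The deposited score is 10 times the −log10 q-value, rounded down, and was not used, whereas the summit offset deposited with narrow peaks placed sequence windows.

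H3K4me1 peaks sharing at least 1 bp were merged (Python 3.11.15, NumPy 2.4.6). Regions hit by at least 2 libraries and over 5 kb from 41451 protein-coding start sites (GENCODE M21, GRCm38) were stitched at 12.5 kb. Arrays had at least 4 regions. They were ranked by regions, then by peaks, then by span. No peak lay on an unknown chromosome name. The nearest gene had the start site closest to the array's edge. H3K4me3 shares, fold medians and widths were compared within each H3K4me3 library, with two-sided exact sign-flip permutation tests (smallest p 0.25) adjusted by Benjamini-Hochberg over 5 tests. Libraries, not regions, were the replicates.

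Named genes are those nearest to the 25 arrays with most regions, listed genes nearest to an array, and 9 genes taken from the study's text (Cd86, Il21r, Il9r, Zbtb20, Cxcr4, H2-Oa, Spib, Spi1 and Stat3), and other genes were named after their values were seen. The members and lists were chosen with earlier results of these data known. Scripts were tested on simulated data. Alternatives to the stitching distance, the number of regions, the number of libraries, the q-value limits, the distance from start sites, the overlap, the class compared and the libraries were tried.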

Additional observations from a re-analysis of the deposited data

How the results depend on the processing

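The number of arrays followed the rule closely. From 228 it moved to 97 with stitching at 5 kb, to 463 with at least 3 regions, to 104 with at least 5 regions and to 3 with regions in all 3 H3K4me1 libraries, and it ranged from 23 to 73 when an H3K4me1 replicate was left out. It was 307 with stitching at 25 kb and 169 with H3K4me1 peaks at a −log10 q-value of at least 2. With the 3 arrays left in the strictest setting, the promoter H3K4me3 difference turned to -11.3 percentage points. The difference in H3K4me3 overlap kept its direction in 23 of 23 alternatives (0.446 to 13.1 points), the peak width in 17 of 17, the promoter share in 19 of 20 and the promoter width in 19 of 19. The fold enrichment ratio kept its direction in 14 of 17, and it was -0.039 (log2) with H3K4me3 peaks at a −log10 q-value of at least 5 and ranged from -0.029 to 0.036 when a replicate was left out. The cause of these changes was not tested. Listed B cell genes nearest to an array numbered 3, 8 and 12 without H3K4me1 replicate 1, 2 and 3, and 0 with regions in all 3 libraries, and listed contrast genes stayed at 0 in each of these. Alternatives by distance from a start site, by exact number of libraries, by smaller clusters, by promoter peaks that reach an array and by repeat content were chosen after seeing the data. No paired analysis was possible because replicate numbers are shared only between the marks, which were not compared, and each test already takes its differences within an H3K4me3 library. With 7 fragments at the median summit, a region missed in a library cannot be called absent there.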
